A study of Saccharomyces cerevisiae S288C with 9 samples.

Results

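The 6 open reading frames of the yeast mating-type loci and 3 genes transcribed in haploid cells, HO, RME1 and NEJ1, were followed in strains of budding yeast that carry a normal or a substituted Set1. These 9 genes were taken by their identifiers from the table of raw gene counts, which holds 7127 annotated rows. RNA was sequenced from Saccharomyces cerevisiae S288C, kept in YPD until mid-log phase with no treatment, in a wild-type control (WT) and in mutants whose Set1 has alanine (S228A) or glutamate (S228E) in place of a serine. Set1 is the enzyme of the COMPASS complex, which methylates histone H3. Each strain has 3 libraries, called biological replicates in the design text, so that the p-values measure the spread between these cultures. The labels give neither the mating type of the strains, nor how the substitutions were made, nor whether a strain is 1 clone. Totals of the gene counts ran from 14455017 to 19658103 per library, and no library was a duplicate of another.

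The mating type of a yeast cell is set by the MAT locus on chromosome III, which holds either the a or the alpha form of a short variable segment called Y, flanked by the common segments X and Z. HML and HMR, near the ends of the same chromosome, hold further copies that are kept silent by the Sir proteins and serve as donors when MAT switches. MATALPHA1 encodes an activator of the genes of alpha cells, and MATALPHA2 a repressor of the genes of a cells; the a1 protein, encoded in the a form of Y, acts only with alpha2, and in diploids the a1-alpha2 pair shuts off haploid-specific genes. HO encodes the endonuclease that cuts MAT to start switching, RME1 a zinc-finger repressor of entry into meiosis, and NEJ1 a factor of nonhomologous end joining. S288C carries an inactive allele of HO, whose transcript can still be made.

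The sequence of the cassettes bears on which rows can receive uniquely placed reads, so it is shown first. In the sacCer3 (R64) genome, the stretch of 1682 bases that covers both alpha genes is the same, base for base, at HML (chrIII:12336-14017) and at MAT (chrIII:199496-201177). MAT and HMR share 608 bases on the X side (chrIII:199496-200103 and chrIII:293129-293736) and 203 bases on the Z side (chrIII:200862-201064 and chrIII:294390-294592). Between these exact blocks lie 758 bases at MAT (chrIII:200104-200861), which hold Y alpha, and 653 bases at HMR (chrIII:293737-294389), which hold Y a. These are bounds of exact matching, and Y itself may end sooner on the Z side. The following 6 stretches of 80 bases, on the plus strand, show the borders of these exact blocks, with the letters between the blocks in capitals. They lie at chrIII:12904-12983, chrIII:200064-200143 and chrIII:293697-293776 for X/Y, and at chrIII:13662-13741, chrIII:200822-200901 and chrIII:294350-294429 for Y/Z.
HML X/Y: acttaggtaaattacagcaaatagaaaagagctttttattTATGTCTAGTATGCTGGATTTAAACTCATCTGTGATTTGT
MAT X/Y: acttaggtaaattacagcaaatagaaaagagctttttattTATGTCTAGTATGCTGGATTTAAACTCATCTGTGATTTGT
HMR X/Y: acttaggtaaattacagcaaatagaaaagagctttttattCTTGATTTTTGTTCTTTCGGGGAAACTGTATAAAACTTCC
HML Y/Z: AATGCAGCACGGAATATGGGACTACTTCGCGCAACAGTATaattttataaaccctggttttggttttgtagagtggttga
MAT Y/Z: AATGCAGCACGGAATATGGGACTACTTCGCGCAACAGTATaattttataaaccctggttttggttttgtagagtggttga
HMR Y/Z: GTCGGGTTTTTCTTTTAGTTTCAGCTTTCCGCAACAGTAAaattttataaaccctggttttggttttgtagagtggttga
The lower-case letters are the same in all 3 cassettes, and the capitals are the same at HML and MAT. At HMR the capitals differ, but not at every letter. The last capital at Y/Z is T at HML and MAT and A at HMR, and the letters CGCAACAGTA before it are the same in all 3.

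The 4 alpha rows held no window of the lengths tried that is found at a single site. Of all windows of 50, 100 or 150 bases within the 4 alpha genes, 0% were found once in the genome; each was found at 2 or 3 sites. The same held for HMRA2, whose windows of these lengths were all found at 3 sites. For HMRA1, HO, RME1 and NEJ1, 100% of the windows of each length were found once. HMRA1 (chrIII:293835-294321) lies wholly within Y a and has 3 exons of 105, 246 and 30 bases with introns of 54 and 52 bases. Its first exon (chrIII:293835-293939, plus strand) is an example of sequence that the reference holds only at HMR.
HMRA1 exon 1: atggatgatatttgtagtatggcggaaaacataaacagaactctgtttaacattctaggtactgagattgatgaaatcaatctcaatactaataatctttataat
A strain of mating type a carries the a form of Y at MAT as well, while the reference carries the alpha form there. Transcripts of the a1 gene at MAT and at HMR therefore fall into the same HMRA1 row, and the table cannot tell them apart.

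**Figure D1:**
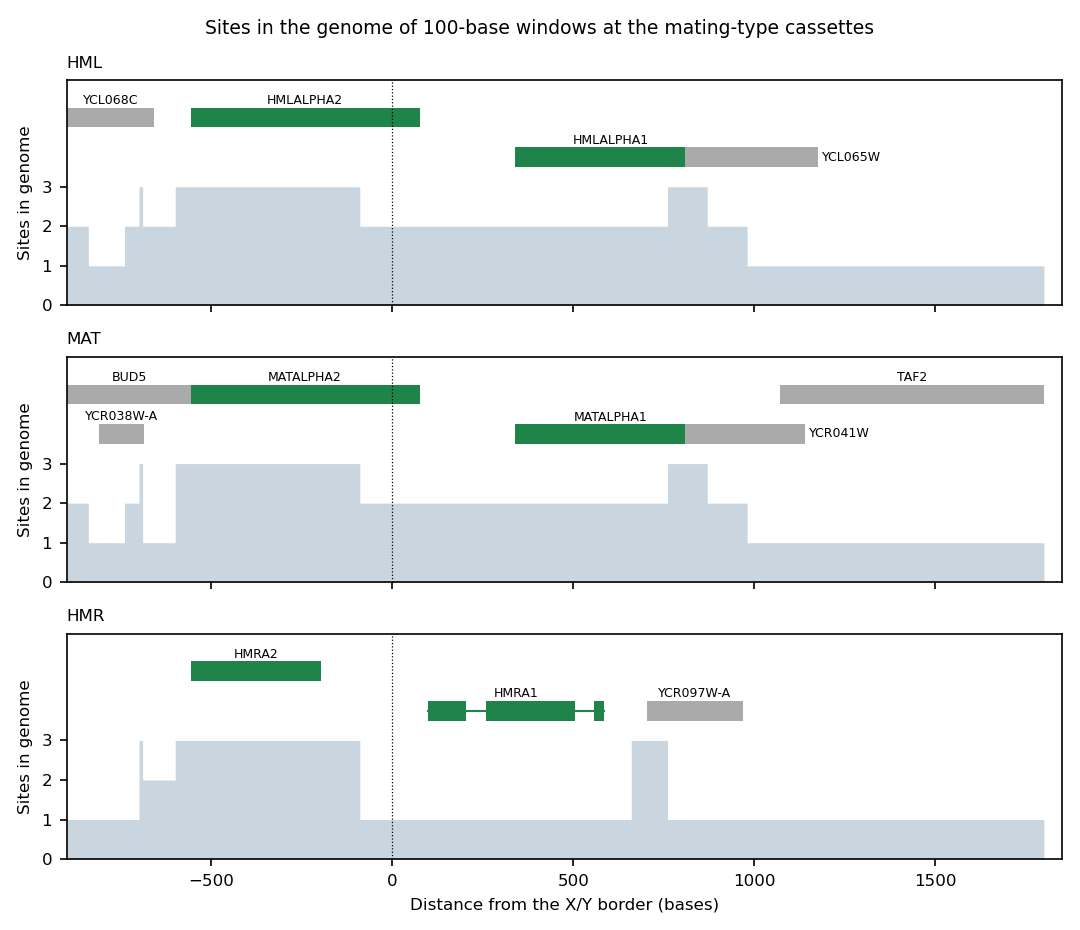
Number of sites in the sacCer3 genome at which the 100-base window starting at each position is found (blue area, y axis), against the distance in bases from the X/Y border (dotted line) at HML, MAT and HMR, with the 6 mating-type genes in green and other annotated rows in grey. The alpha genes at HML and MAT and HMRA2 stand over 2 or 3 sites throughout, and HMRA1, drawn with its 3 exons, stands over 1.

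All 4 alpha rows held 0 counts in each of the 9 libraries. They are MATALPHA1 (YCR040W, chrIII:200442-200969, plus strand), MATALPHA2 (YCR039C, chrIII:199546-200178, minus strand), HMLALPHA1 (YCL066W, chrIII:13282-13809, plus strand) and HMLALPHA2 (YCL067C, chrIII:12386-13018, minus strand). A count of 0 allows up to 3 counts, which is 0.151 to 0.208 CPM (counts scaled to library size, with 1e6 as the total) in a single library and 0.0186 CPM over all 9. This limit covers counting error of uniquely placed reads only, and since no window tried in these rows is unique, it says nothing about the level of the alpha transcripts. The open reading frames YCR041W and YCL065W, which overlap MATALPHA1 and HMLALPHA1 by 59 bases each, were at 0 in all libraries too. BUD5, a bud-site selection gene that overlaps MATALPHA2 by 4 bases, held 235 to 434 counts, and TAF2 on the other side of MAT 1201 to 1727.

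Because the alpha rows could not show the type of the cells, markers of cell type elsewhere in the genome were looked at. In every strain the markers of a cells summed to more than those of alpha cells. Markers of a cells (STE2, STE6, MFA1, MFA2, BAR1, AGA2 and ASG7) summed to between 1435 and 1757 CPM in the WT libraries, and markers of alpha cells (STE3, MF(ALPHA)1, MF(ALPHA)2 and SAG1) to between 57.8 and 61.0 CPM. In the S228E libraries the sums were 1623 to 1767 CPM and 56.2 to 61.8 CPM. In the S228A libraries both sums were higher, at 7565 to 9037 CPM for a cells and 137.0 to 207.7 CPM for alpha cells. SAG1 made up most of the alpha-cell sum, with means of 48.7 CPM in WT and 160.0 CPM in S228A. The WT and S228A means were 7.44 and 14.7 CPM for MF(ALPHA)2, and 0.426 and 0.856 CPM for MF(ALPHA)1. For STE3 they were 3.22 and 3.04 CPM. STE2, the receptor of a cells for alpha-factor, was at 577.6 ± 77.1 CPM (SD, n = 3) in WT, and STE3, the receptor of alpha cells for a-factor, at 3.22 ± 1.08 CPM. No marker of either list was at 0 in all libraries.

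A member was tested where its counts passed the filter on low values, and was called where edgeR's quasi-likelihood test gave a Benjamini-Hochberg adjusted p under 0.05 with a fold change over 1.5, the thresholds of the study. Of the 9 members, 5 were tested: HMRA1, HMRA2, HO, RME1 and NEJ1. In S228A against WT, 0 of the 5 were called, where 12.2% of the 6133 genes tested were. In S228E against WT, 0 of the 5 were called, beside 0.0489% of all genes, and in S228E against S228A 0 of the 5, beside 11.1%. At an unadjusted edgeR p under 0.05 there were 2, 0 and 1 of the 5 members in the 3 comparisons, beside 2739, 345 and 2482 of the 6133 genes, and DESeq2 also called 0 in each. The median log2 fold change of the 5 was -0.04 in S228A against WT, where that of all genes tested was -0.01 and the 5th and 95th percentiles were -0.84 and 0.59. S228A enters 2 of these comparisons and WT enters 2, so the comparisons are not independent of each other.

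**Figure D2:**
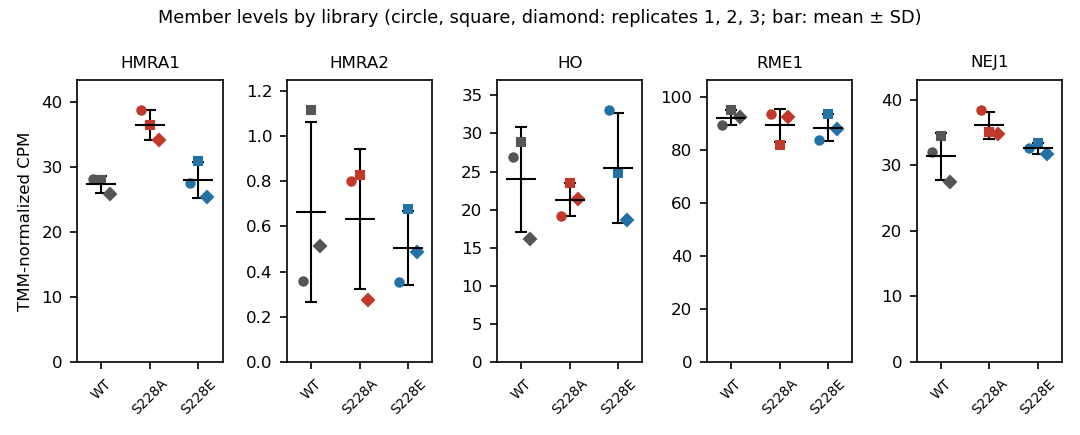
TMM-normalized CPM (y axis, from 0, with its own scale for each gene) of the 5 members with counts in each library of WT, S228A and S228E; symbols mark replicates 1 to 3 and the bars the mean ± SD (n = 3). The 3 S228A libraries lie above the other 6 for HMRA1 and, narrowly, for NEJ1 (lowest S228A 34.76, highest WT 34.55 CPM). The strains overlap for HMRA2, HO and RME1. The 4 alpha genes, at 0 counts in every library, are not drawn.

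HMRA1 (YCR097W), which codes for the a1 homeodomain protein, was the member with the smallest p. Its row held 551, 479 and 451 counts in the WT libraries, 679, 705 and 621 in S228A, and 547, 547 and 366 in S228E. Scaled for library size with TMM, its levels in CPM were 28.2, 28.1 and 25.8 for WT, 38.8, 36.4 and 34.2 for S228A, and 27.6, 30.9 and 25.4 for S228E. The 3 S228A libraries were above each of the other 6, and the S228E libraries overlapped those of WT. Means were 27.4 ± 1.35 (WT), 36.5 ± 2.28 (S228A) and 28.0 ± 2.76 (S228E) CPM, with the SD of 3 libraries. In S228A against WT the log2 fold change was 0.41 ± 0.09 (SE; 95% interval 0.21 to 0.62; edgeR adjusted p = 0.0043), which is 1.33-fold and short of the 1.5-fold threshold. Between S228E and S228A the log2 difference was -0.38 ± 0.09 (edgeR adjusted p = 0.00799), also short of the threshold, and between S228E and WT it was 0.03 ± 0.09 with an interval of -0.17 to 0.24 (edgeR adjusted p = 0.98). The summed a-cell markers were higher in the same S228A libraries; their part in the HMRA1 difference was not tested. In bulk RNA, a change in the share of cells that hold a transcript and a change in the amount per cell cannot be told apart.

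HMRA2 (YCR096C, chrIII:293179-293538, minus strand) lies in the X side of HMR and has no known function. It held 7, 19 and 9 counts in WT, 14, 16 and 5 in S228A and 7, 12 and 7 in S228E. The counts were low in every library, and the 3 strains overlapped. Its means were 0.662 ± 0.399 CPM in WT, 0.634 ± 0.31 in S228A and 0.505 ± 0.163 in S228E (SD, n = 3). The log2 fold change of S228A against WT was -0.04 ± 0.51 (SE), with a 95% interval of -1.15 to 1.08 (edgeR adjusted p = 0.966). The few counts of this repeated row do not tell changes within this interval apart. The values for S228E were -0.37 ± 0.54 against WT and -0.34 ± 0.54 against S228A. The row ends 198 bases from the X/Y border and contains no window tried that is found once, and where its reads were placed uniquely was not tested.

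**Figure D3:**
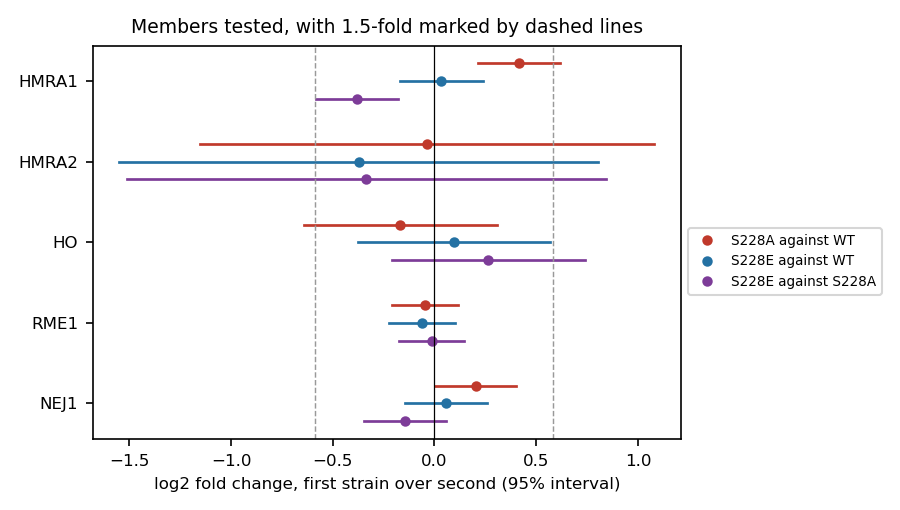
Log2 fold change (x axis) with its 95% interval for the 5 tested members for each pair of strains; dashed lines mark 1.5-fold in either direction. The interval of HMRA1 excludes 0 in both comparisons with S228A (0.41 and -0.38), and that of HMRA2 is the widest of the 5. For NEJ1 the interval in S228A against WT, from 0.002 to 0.402, just excludes 0.

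HO (YDL227C, chrIV:46271-48031, minus strand) had 526, 492 and 282 counts in WT, 335, 454 and 388 in S228A and 655, 440 and 268 in S228E. In CPM these were 26.9, 28.9 and 16.1 in WT, 19.1, 23.4 and 21.4 in S228A, and 33.0, 24.8 and 18.6 in S228E. The WT and S228E libraries were spread widely, with replicate 3 lowest in each, and the 3 S228A values fell within the range of WT. The mean was 24.0 ± 6.85 CPM in WT, 21.3 ± 2.16 in S228A and 25.5 ± 7.26 in S228E (SD, n = 3). The log2 fold change was -0.17 ± 0.22 in S228A against WT (SE; 95% interval -0.64 to 0.31; edgeR adjusted p = 0.592), 0.10 ± 0.22 in S228E against WT (interval -0.38 to 0.57; edgeR adjusted p = 0.968) and 0.26 ± 0.22 in S228E against S228A (edgeR adjusted p = 0.398). HO varied between libraries of the same strain more than most genes at its level. Its within-strain SD was 0.359 on the log2 scale, larger than in 98.5% of 2113 genes with 10 to 50 CPM, whose median was 0.126. HMRA1 and NEJ1, at 0.104 and 0.107, were below that median.

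RME1 (YGR044C, chrVII:582990-583892, minus strand) held 1750, 1622 and 1617 counts in WT, 1641, 1590 and 1679 in S228A and 1662, 1663 and 1267 in S228E. In CPM the values were 89.5, 95.1 and 92.5 for WT, 93.7, 82.1 and 92.5 for S228A, and 83.9, 93.9 and 87.9 for S228E. All 3 strains overlapped, and the within-strain SD of 0.0803 on the log2 scale was the smallest of the members at 10 CPM or more. The log2 fold change was -0.05 ± 0.07 in S228A against WT (SE; 95% interval -0.21 to 0.11; edgeR adjusted p = 0.668) and -0.06 ± 0.07 in S228E against WT (interval -0.22 to 0.10; edgeR adjusted p = 0.916). S228E and S228A differed by -0.01 ± 0.07 (edgeR adjusted p = 0.909). All 3 intervals leave out changes as large as 1.5-fold in either direction.

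NEJ1 (YLR265C, chrXII:674427-675455, minus strand) held 626, 589 and 481 counts in WT, 673, 679 and 631 in S228A and 646, 592 and 458 in S228E. Its levels in CPM were 32.0, 34.5 and 27.5 for WT, 38.4, 35.1 and 34.8 for S228A, and 32.6, 33.4 and 31.8 for S228E. The lowest S228A library was just above the highest of WT, and the S228E values lay within the WT range. The log2 fold change of S228A against WT was 0.20 ± 0.09 (SE; 95% interval 0.00 to 0.40), at an unadjusted edgeR p of 0.048 and an adjusted p of 0.108. S228E against WT gave 0.06 ± 0.09 (edgeR adjusted p = 0.947), and S228E against S228A -0.15 ± 0.09 (edgeR adjusted p = 0.262).

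Levels of different genes were compared per length, as CPM per kb of exon. In WT, RME1 stood highest at 102.3 ± 3.14, followed by HMRA1 at 71.8 ± 3.53, NEJ1 at 30.5 ± 3.46 and HO at 13.6 ± 3.89 CPM per kb (SD, n = 3). HMRA2 is not placed in this order, since none of its windows is found once and its counts do not give a level comparable with the others. The libraries of neighbours in the order did not overlap in WT, nor in S228E. In S228A the levels of RME1 and HMRA1 were 99.0 ± 7.03 and 95.7 ± 5.97 CPM per kb, and their libraries overlapped, from 90.9 to 103.7 and from 89.8 to 101.7. NEJ1 and HO followed in S228A as in WT, at 35.1 ± 1.97 and 12.1 ± 1.23 CPM per kb.

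The promoters of the members were searched for motifs of regulators of mating type, of pheromone response and of HO, on both strands of the window from 250 bases before to 50 after each coding start. The core of the a1-alpha2 operator occurred in 39 of 5988 promoters (0.651%). Among the members it was found in NEJ1, 148 bases before the start, and in the stretch between the divergent alpha genes, where the copies at MAT and at HML account for 4 rows. These stretches are shown with the core in capitals, for MAT from chrIII:200179-200441 on the plus strand and for NEJ1 from chrXII:675406-675705 on the minus strand, which reads towards the gene and begins within the PDR8 row.
MAT between MATALPHA2 and MATALPHA1: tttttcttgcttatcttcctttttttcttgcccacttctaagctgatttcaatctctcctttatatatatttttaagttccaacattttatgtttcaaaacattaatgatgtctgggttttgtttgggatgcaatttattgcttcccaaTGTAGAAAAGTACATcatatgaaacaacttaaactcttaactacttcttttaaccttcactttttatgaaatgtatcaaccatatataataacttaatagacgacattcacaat
NEJ1 promoter: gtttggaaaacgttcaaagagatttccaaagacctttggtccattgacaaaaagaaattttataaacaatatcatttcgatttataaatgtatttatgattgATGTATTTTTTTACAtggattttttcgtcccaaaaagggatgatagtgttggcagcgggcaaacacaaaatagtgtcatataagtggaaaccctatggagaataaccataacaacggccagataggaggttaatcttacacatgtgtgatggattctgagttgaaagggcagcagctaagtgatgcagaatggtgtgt
No match to this core lay in the windows of HMRA1, HMRA2, HO and RME1. TGAAACA, bound by the pheromone-response factor Ste12, occurred in 7.55% of promoters and, of the members, in the windows of the 4 alpha genes, at 2 matches each. These are the same 2 sites in the stretch between the divergent alpha genes, with their copies at HML. CNCGAAA, bound by Swi4 and Swi6, occurred in 13.8% of promoters and in HO, HMRA1 and HMRA2. The matches of HMRA1 and HMRA2 are the same site, which lies between these divergent genes. ACGCGT, bound by Mbp1 with Swi6, occurred in 3.07% of promoters and in 0 of the 9 windows. HO is known for regulatory sites far upstream of these windows, which were not searched. A match describes letters of the reference only.

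Haploid-specific genes outside the members include most of the signalling chain for pheromone. Of 10 such genes, 6 rose and 1 fell in S228A against WT, beside 12.2% of all genes called, with a median log2 fold change of 0.90. Those that rose were FAR1 (1.77 ± 0.12), which arrests the cell cycle in response to pheromone, the mating kinase gene FUS3 (1.76 ± 0.10), AMN1 (1.55 ± 0.10), which acts in mitotic exit, and GPA1 (1.29 ± 0.09), the alpha subunit of the pheromone G protein. AXL1 (0.99 ± 0.07), a protease that matures a-factor, and STE12 (0.81 ± 0.15) rose as well. RDH54, a recombination gene, fell by 0.86 ± 0.09 on the log2 scale, from 71.4 ± 7.72 to 39.3 ± 2.65 CPM (SD, n = 3). STE4, STE5 and STE18 were at 0.55 ± 0.07, 0.28 ± 0.06 and 0.26 ± 0.10, short of 1.5-fold and not called. Their edgeR adjusted p was 0.00011, 0.0048 and 0.076. In S228E against WT 0 of the 10 were called, beside 0.0489% of all genes. In S228E against S228A 6 were lower and 1 was higher, beside 11.1% of all genes called. The call of STE12 there (-0.59) was lost without S228A replicate 2 (-0.38).

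All 7 markers of a cells rose in S228A against WT, where 12.2% of the 6133 genes tested were called, 268 of them higher. The markers had a median log2 fold change of 2.68. They ran from STE6, the a-factor exporter, at 1.31 ± 0.07 (SE) through MFA2 (1.59), STE2 (2.02), BAR1 (2.68), MFA1 (2.93) and AGA2 (3.71) to ASG7 at 5.0 ± 0.12. Of the 4 markers of alpha cells, SAG1 (1.72 ± 0.13), the agglutinin of alpha cells, and MF(ALPHA)2 (0.98 ± 0.18) rose. STE3 was at -0.08 ± 0.24 and MF(ALPHA)1 at 1.00 ± 0.42, not called (1.39 and called without WT replicate 2). The lists hold genes that the pheromone response also raises, so they do not mark cell type alone. None of the 11 markers was called in S228E against WT, beside 0.0489% of all genes. Of the 11, 1 had an unadjusted edgeR p under 0.05, beside 345 of all 6133 genes, and DESeq2 also called 0.

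The regulators of HO stayed below the calling threshold in S228A against WT except SWI5, where 12.2% of all genes tested were called. SWI5, the activator that binds the HO promoter at the end of mitosis, fell from 60.1 ± 7.77 to 6.41 ± 1.16 CPM (SD, n = 3), or -3.23 ± 0.13 (SE) on the log2 scale at an edgeR adjusted p of 9.56e-10. Its mean in S228E was 63.9 ± 1.74 CPM. SWI3 and SNF2, subunits of the SWI/SNF remodeller, were at -0.47 and -0.34 (edgeR adjusted p = 0.00027 and 0.0030) and were not called. GCN5 and RPD3 were at -0.33 and -0.21 (edgeR adjusted p = 0.0042 and 0.037). All 4 were short of 1.5-fold. The median of the 10 regulators was -0.22. Of the 10, 6 had an unadjusted edgeR p under 0.05, beside 2739 of all 6133 genes. HO itself, at -0.17 ± 0.22, was not called in the comparison in which SWI5 was 9.36-fold lower.

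Of the genes that work with Rme1 in the choice between division and meiosis, IME1, the activator of early meiotic genes, rose from 9.69 ± 0.832 to 15.3 ± 2.65 CPM in S228A against WT (log2 0.66 ± 0.15). This call was lost without S228A replicate 1 (0.52). The G1 cyclin gene CLN2 fell from 108.4 ± 23.3 to 43.7 ± 9.29 CPM (-1.31 ± 0.17), and IME2, a kinase of meiosis, was at 0.13 ± 0.14. IME4 held 0 counts in all 9 libraries. All 1803 bases of its row lie within that of the antisense transcript RME2, which held 13 to 30 counts, and the counting command sets no option that would count reads lying in 2 rows.

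Of 7 genes that silence HML and HMR, 2 fell in S228A against WT and 0 rose, beside 12.2% of all genes called. Their median log2 fold change was -0.33. At an unadjusted edgeR p under 0.05 there were 6 of the 7, beside 2739 of all 6133 genes. ORC1 of the origin recognition complex (-0.80 ± 0.08) and ABF1, a silencer-binding factor (-0.77 ± 0.11), fell. SIR4, a structural part of silent chromatin, was at -0.55 ± 0.10 and just short of the 1.5-fold threshold, and it was called without WT replicate 1 (-0.59), WT replicate 2 (-0.61) or S228A replicate 2 (-0.62). SIR1, SIR2, SIR3 and RAP1 were between -0.33 and -0.20. The edgeR adjusted p was 0.048 for SIR2, 0.023 for SIR3, 0.020 for RAP1 and 0.00093 for SIR4, all short of 1.5-fold. In S228E against WT 0 of the 7 were called, beside 0.0489% of all genes. Of the 7, 1 had an unadjusted edgeR p under 0.05 there, beside 345 of all 6133 genes, and DESeq2 called 0.

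Of the partners of the mating-type proteins, 0 of 3 were called in S228A against WT. MCM1, which binds with alpha1 and alpha2, was at -0.00 ± 0.10. The corepressor genes TUP1 and CYC8 were at -0.46 ± 0.08 and -0.28 ± 0.11, short of 1.5-fold (edgeR adjusted p = 0.00052 and 0.053). Of 8 genes of nonhomologous end joining, the pathway of NEJ1, 0 were called in S228A against WT, and their log2 fold changes ran from -0.09 to 0.25 with a median of 0.05. YKU70, a subunit of the end-binding Ku complex, was at 0.25 ± 0.10, and RAD50 of the end-bridging complex at 0.19 ± 0.08. Of all genes tested, 12.2% were called in S228A against WT. At an unadjusted edgeR p under 0.05 there were 2 of the 3 partners and 3 of the 8 end-joining genes, beside 2739 of all 6133 genes. No gene of these lists was called in S228E against WT, beside 0.0489% of all genes.

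**Figure D4:**
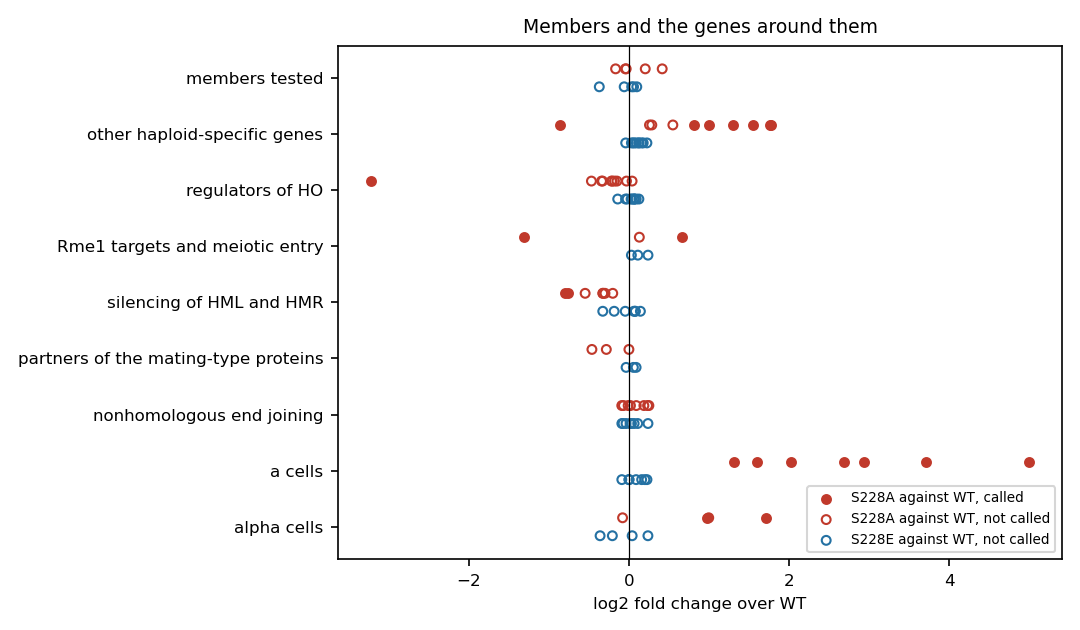
Log2 fold change over WT (x axis) of the tested members and of each list of related genes (rows), with S228A in red, filled where called, and S228E in blue. The members lie between -0.17 and 0.41 in S228A, where the a-cell markers lie between 1.31 and 5.0.

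Of the 15 other rows that overlap or lie next to a member, 9 were tested. In S228A against WT 1 of the 9 was called, beside 12.2% of the 6133 genes tested. This was PDR8, a transcription factor gene of drug resistance that lies 163 bases upstream of NEJ1 on the same strand, which rose from 104.6 ± 14.1 to 175.9 ± 9.90 CPM (SD, n = 3; log2 0.75 ± 0.09; edgeR adjusted p = 3.77e-05). NEJ1, its neighbour, was at 0.20 ± 0.09. CHA1, the serine deaminase gene that follows HML, was at -0.47 ± 0.10 (edgeR adjusted p = 0.00221) and was not called. At HMR, YCR097W-A beyond HMRA1 held 1 to 5 counts per library. In S228E against WT 0 of the 9 were called, beside 0.0489% of all genes.

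The genes whose levels followed those of a member most closely over the 9 libraries were found by Pearson's r of log2 CPM among 5546 other genes at 5 CPM or more. For HMRA1 they were SFH5 (0.974), PAC2 (0.973) and FOL2 (0.971). For HO they were ISU2 (0.955), YMC2 (0.922) and ANR2 (0.907), for RME1 YDR154C (0.967), CRD1 (0.938) and COS2 (0.876), and for NEJ1 MAP1 (0.960), RPS25A (0.960) and RPL8B (0.955). For HMRA2, compared with 5547 genes, the closest were DFR1 (0.840), TEX1 (0.806) and YER133W-A (0.792). All of these values come from the same 9 libraries, were picked as the highest among all genes compared, and describe likeness only.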

How the data were processed

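Gene counts were deposited as 1 table of whole, unnormalized counts for the 9 libraries. Per the file headers, the authors counted read pairs over exons per gene with featureCounts 2.0.1 on the sacCer3 Ensembl annotation, and set no option for strand, overlapping rows or reads placed at several sites, so such reads were left out and both strands were counted together. Bowtie 0.12.2 and sacCer3 stand in the submitters' processing notes with no role, and for the aligner and length of these reads nothing is given in the sources used here. The kit was from KAPA, per the labels' protocols; their extraction text describes chromatin immunoprecipitation, the design text a phenol-chloroform preparation of total RNA. Columns were matched to samples by the initial of the strain and the replicate number; 0 columns were left unused. Of 7127 rows, 6047 had a RefSeq R64 locus tag, and 6038 of them the same start and end.

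Counts were filtered (filterByExpr), TMM-scaled and fitted across all 9 libraries with edgeR 4.0.16 in R 4.3.3 (glmQLFit, glmQLFTest; common coefficient of variation 9.61%), with Benjamini-Hochberg adjustment over 6133 genes. A call needed an adjusted p under 0.05 and over 1.5-fold. The SE is the absolute log2 fold change over the square root of F, and 95% intervals use the t distribution with edgeR's degrees of freedom. Floors are 3 counts and cover counting error only, since copies made by PCR are not independent molecules. Alternatives were other scalings, no filter or 10 counts in 3 libraries, DESeq2 1.42.0, limma 3.58.1 (voom), the 6 libraries of a comparison, a replicate block and leaving out each library. Members and lists were chosen with earlier results of these data known. Named were all members and markers, called list genes, the 2 of smallest p in lists with no call, overlapping rows and the 3 most similar genes; uncalled genes of lists with a call, and MCM1, TAF2, PDR8, CHA1, YCR097W-A and RME2, were named after their values were seen. Sequences are from the RefSeq R64 genome. The result of 1 further motif search is not reported here.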

Additional observations from a re-analysis of the deposited data

How the results depend on the processing

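All 254 alternative values of the 5 tested members stayed uncalled, and 2638 of 2651 values of genes in the lists stayed on their side of the threshold; the exceptions not given above are IME1 in S228E against S228A, called without S228A replicate 2 (-0.59), S228A replicate 3 (-0.65) or S228E replicate 2 (-0.65), STE12, lost under limma-voom (-0.56) and with the replicate block (-0.57), and, without S228A replicate 3, SIR4 (0.58, lost) and TUP1 (0.60, gained), all in that comparison. HMRA1 in S228A against WT ran from 0.37 to 0.46 with an edgeR, DESeq2 or limma adjusted p of at most 0.0214 in all 17 alternatives. NEJ1 ran from 0.13 to 0.28, with an adjusted p under 0.05 in 1 of 17, HO from -0.38 to -0.01 and RME1 from -0.08 to 0.02. Genes called over the whole table in S228E against WT numbered 3, against 5 with DESeq2, 1 with only the 6 libraries of those strains and 1 with the replicate block, and 1 to 3 when a library was left out; the cause was not tested. Leaving out a library gave 705 to 768 calls in S228A against WT (747) and 643 to 697 in S228E against S228A (680); the replicate block gave 738 and 666. The replicate numbers are not stated to pair cultures, and deviations of same-numbered libraries correlated from -0.25 to 0.23, over 0.1 in 1 of 9 pairs. HMRA2 ran from -0.35 to 0.55 in S228A against WT, with its sign changed in 2 of 17 alternatives (without WT replicate 2 and without S228A replicate 3), and from -0.69 to 0.21 in S228E against WT. Repeated sequence limits the alpha genes and HMRA2, whose few counts limit it further.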

Other observations

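Rows of 4 biosynthesis genes that are often deleted as markers in laboratory strains were looked at after the values were seen. LEU2, on chromosome III, held 0 counts in all 9 libraries, and URA3 and MET17 held 0 to 1 count per library, while HIS3 held 2800 to 4360. All 9 libraries shared this pattern, and the labels state no such deletions.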
